A study of Mus musculus with 12 samples.

Results

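Ribosome biogenesis and RNA polymerase I genes were followed through terminal erythroid differentiation in mouse bone marrow. The set held 37 genes, taken by gene symbol from a table of 29838 genes, and all 37 were found. The RNA came from wild-type (WT) bone marrow of 8-week-old male C57BL/6 mice that received no treatment. CD45- cells were first purified with magnetic beads and then sorted by flow cytometry, with CD45, CD11b and GR1 as a negative gate. Proerythroblasts (Pro) were the cells high in CD44 and low in Ter119. Basophilic (Baso), polychromatic (Poly) and orthochromatic (Ortho) erythroblasts were separated among Ter119+ cells by CD44 and forward scatter. RNA was sequenced in 3 libraries per stage, 12 for the 4 stages. Ortho replicates 2 and 3 were labelled only as erythroblasts and were placed in Ortho by their titles. No source said whether the replicates came from separate mice, so the p-values measure the spread between these libraries, which may be technical.

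Ribosomes are assembled in the nucleolus. RNA polymerase I transcribes the ribosomal DNA repeats into a long precursor RNA, and small nucleolar ribonucleoproteins (snoRNPs) modify it. Large complexes then cut and fold it into the small and large subunits. Erythroblasts divide a few times while filling with hemoglobin, then lose the nucleus, and the reticulocytes that result clear their ribosomes.

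Expression was given as FPKM, a fragment count divided by transcript length and library size, which allows levels to be compared between genes. Depth could not be read from these values. The FPKM values of a library summed to between 505624 and 691033. Hemoglobin genes took a mean of 8.44% of the sum in Pro and 35.1% in Baso, then 36.6% in Poly and 49.6% in Ortho, which lowers the relative value of other genes. The 9 erythroid markers were detected in the 4 stages, and their summed FPKM was 1902-2513 in Pro, 5356-5829 in Baso and 4912-5260 in Ortho. Of the 9, 3 were called higher and 3 lower in Ortho compared to Pro, the latter being Klf1 (-2.19), Gata1 (-2.04) and Epor (-1.66). Kit, a receptor of early erythroid cells, was low in Pro (17.8 ± 3.38 FPKM, SD, n = 3) and at 14.5 ± 2.69 in Ortho. Transcripts of other cells were also present despite the gate. The 9 neutrophil markers, led by S100a9, summed to 7233-9030 FPKM in Pro and to 12423-14569 in Baso, then to 15977-18972 in Poly and 14216-17631 in Ortho, and none of them was near 0. The 7 B cell markers summed to 141-226 FPKM in Pro and 440-453 in Ortho. The 8 macrophage markers summed to 29.2-35.0 and 62.1-73.2 FPKM, the 7 T and NK cell markers to 20.7-29.1 and 33.1-39.4, and the 5 megakaryocyte markers to 66.5-121 and 35.8-45.2. The macrophage markers C1qa, C1qb, C1qc and Mertk and the T cell markers Cd3e, Cd3d, Cd3g, Trac and Cd8a were at or near 0 (means under 1 FPKM). The neutrophil, B cell, macrophage and T and NK cell sums were thus higher in the later stages, in which the ribosome biogenesis genes were lower. Their part in the results below was not tested.

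The 37 genes were high in Pro, fell sharply in Baso and then stayed at nearly the same level. Their summed FPKM was 2381, 1908 and 2368 in the 3 Pro libraries, against 822-916 in Baso, 799-872 in Poly and 751-782 in Ortho. All Pro libraries lay above all later ones, and the later stages lay close together. As a share of all FPKM outside the hemoglobin genes, the 37 genes took 0.467% ± 0.0546 (SD, n = 3) in Pro, and then 0.228% ± 0.0101 in Baso, 0.224% ± 0.00797 in Poly and finally 0.226% ± 0.0038 in Ortho. In bulk samples, fewer cells of a type and less RNA per cell cannot be told apart.

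Genes were compared with limma on log2(FPKM + 1). A gene was called lower or higher when its adjusted p was under 0.05 and its log2 fold change was at least 1 in size. Of 12994 genes tested, 8.54% were called lower in Baso compared to Pro, and 28 of the 37 ribosome biogenesis genes were. None of the 37 was called higher, against 1.82% of all genes. By adjusted p alone, 36 of 37 were lower, against 42.1% of all genes. For 36 of 37 the 3 Baso libraries lay below the 3 Pro libraries without overlap, which held for 44.2% of all genes. The median log2 fold change of the 37 genes was -1.29 and that of all genes tested was -0.23. On the FPKM scale, the median gene of the set was 2.51-fold higher in Pro than in Baso, and single genes ranged from 1.11-fold to 3.53-fold.

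**Figure D1:**
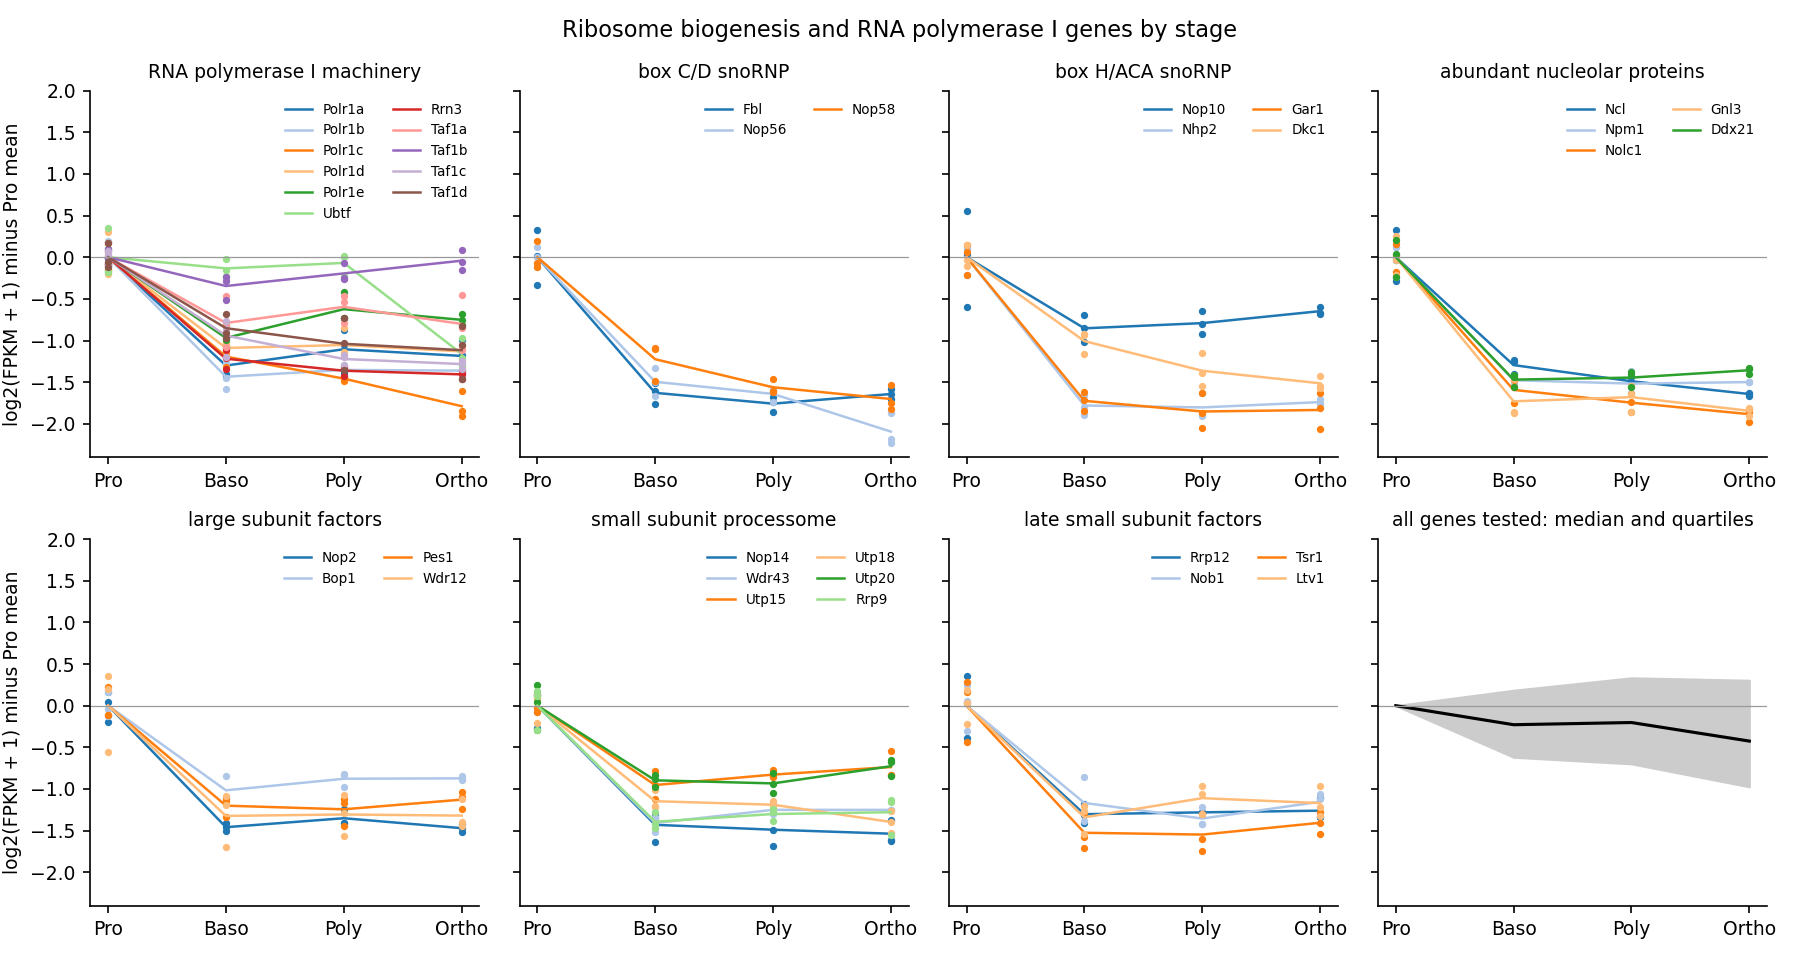
Level of each gene by stage, as log2(FPKM + 1) minus the mean of the Pro libraries. Points are libraries (3 per stage), lines join stage means, each panel holds genes of 1 role, and the last panel gives the median and quartiles of the 12994 genes tested. Most genes drop between Pro and Baso and run flat afterwards, Ubtf drops between Poly and Ortho, and Taf1b ends at -0.04.

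From Baso to Poly, the set hardly moved. None of the 37 genes was called, against 0.454% of all genes called lower and 0.0616% called higher. With limma, none had an adjusted p under 0.05, against 5.77% of all genes below 0 and 6.58% above 0, and at an unadjusted p under 0.05 there were 4 below 0 and 1 above 0, against 12.4% and 16.9% of all genes. When replicates were blocked by number within Baso, Poly and Ortho, Dkc1 had an adjusted p of 0.0162 (-0.36), against 9.44% of all genes below 0. Its adjusted p was 0.0417 with median centring, 0.0457 with a mean FPKM of at least 5, 0.0458 without Pro replicate 1 and 0.0397 without Poly replicate 2. The shares of all genes below 0 were then 7.67%, 9.0%, 7.42% and 2.92%. Without Baso replicate 1, the adjusted p was under 0.05 for Dkc1, Nop58 and Taf1c (-0.44, -0.47 and -0.41), against 5.19% of all genes. The median log2 fold change was -0.02. The 95% confidence intervals of the 37 genes lay between -0.62 and 0.60, so that a 2-fold change was outside the interval of every gene.

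From Poly to Ortho, only Ubtf was called lower, against 4.81% of all genes, and none was called higher, against 1.05%. By adjusted p alone 3 were lower, namely Ubtf, Nop56 and Polr1c, against 21.7% of all genes, and none was higher, against 4.43%. The interval of the log2 fold change stayed within 1 of 0 for the 36 genes other than Ubtf. Over the whole course, 30 of 37 were called lower in Ortho compared to Pro, against 23.8% of all genes, and none was called higher, against 6.33%. By adjusted p alone 36 were lower, against 53.2% of all genes. The median log2 fold change was -1.32, against -0.43 for all genes.

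The first step (Pro to Baso) and the last step (Poly to Ortho) share no libraries, and their difference was tested in the same model. For 35 of 37 genes the fall at the last step was smaller than at the first with an adjusted p under 0.05, against 25.4% of all genes. Ubtf alone had the larger fall at the last step, a direction with an adjusted p under 0.05 in 15.8% of all genes. Taf1a was the gene that did not pass the adjusted p, with a difference between the steps of 0.58 ± 0.26 (log2, SE) and an adjusted p of 0.0936.

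**Figure D2:**
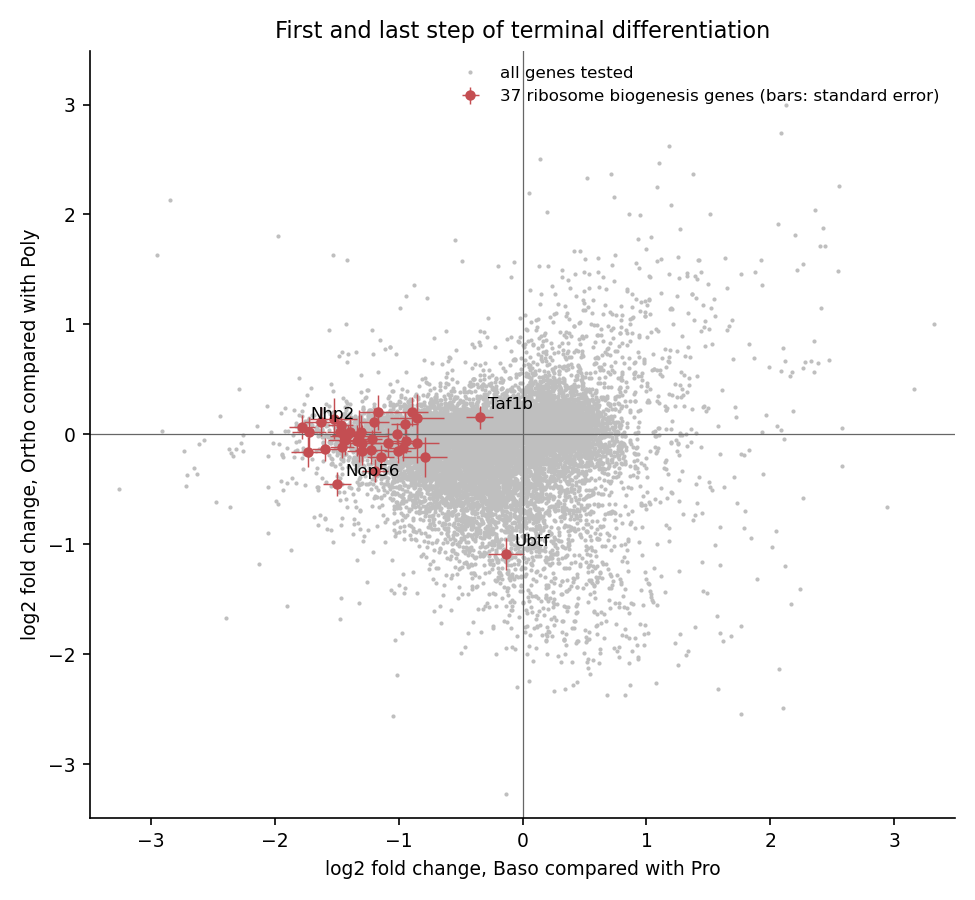
Log2 fold change from Pro to Baso (x axis) and from Poly to Ortho (y axis) for the 12994 genes tested (grey) and the 37 ribosome biogenesis genes (red, bars are standard errors). The 37 genes lie left of 0 on the x axis and mostly near 0 on the y axis, except Ubtf at -0.13 and -1.09.

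The size of these changes depended on how the libraries were scaled. When hemoglobin genes were left out and the rest brought to the same sum, 18 of the 37 genes were called lower in Baso compared to Pro and 13 in Ortho compared to Pro, and the median changes were -0.98 and -0.88. When each library was centred on its median gene, the counts were 18 and 15 and the medians -0.999 and -0.92. All genes tested then had medians of 0.03 and -0.03 without hemoglobin, and 0.07 and -0.03 when centred. The share of all genes called lower in Baso compared to Pro was 3.24% and 3.15% in these scalings, and in Ortho compared to Pro 8.88% and 9.95%. By adjusted p alone, with these scalings, 35 and 34 of the 37 genes were below 0 in Baso compared to Pro, against 24.4% and 23.5% of all genes. In Ortho compared to Pro there were 33 and 34, against 34.8% and 35.5%. The set thus moved relative to the median gene in each scaling, while the 2-fold limit was met by fewer of its genes.

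**Figure D3:**
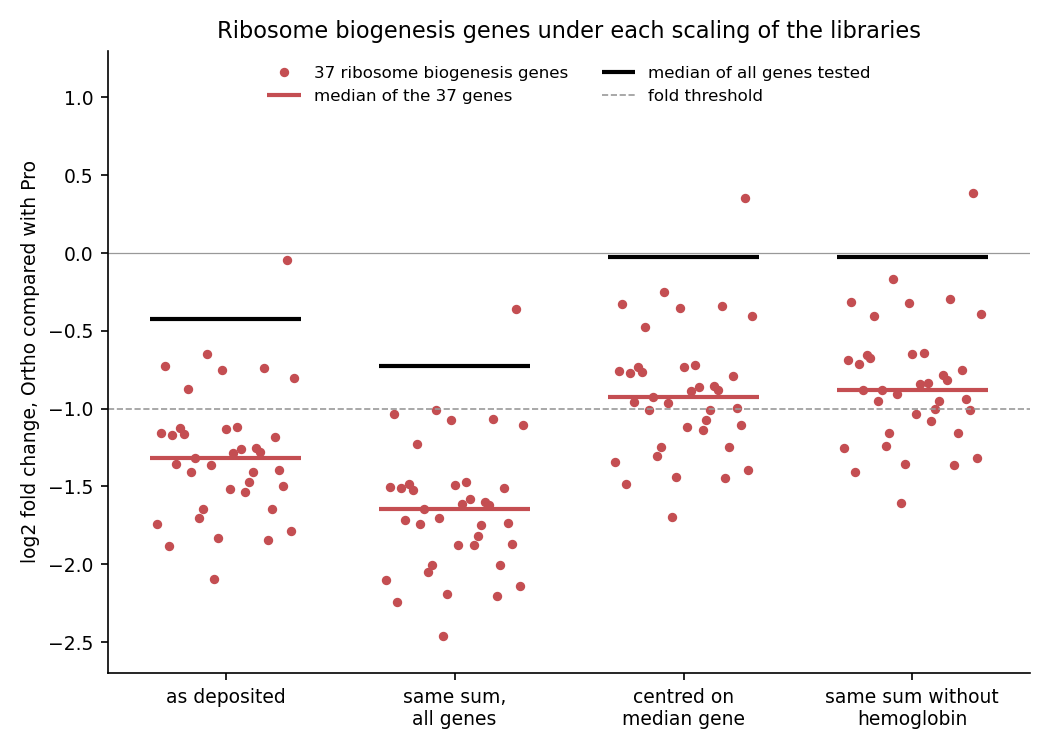
Log2 fold change in Ortho compared to Pro for the 37 ribosome biogenesis genes (points) under 4 scalings of the libraries, with the median of the 37 genes (red line), the median of all genes tested (black line) and the fold threshold (dashed). The median of the 37 genes is -1.32 as deposited, -1.65 with all libraries at the same sum, -0.92 when centred on the median gene and -0.88 without hemoglobin, below that of all genes each time.

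The machinery of RNA polymerase I was the most varied group. It held 11 genes, of which 5 were called lower in Baso compared to Pro and 8 in Ortho compared to Pro. Polr1a and Polr1b encode the largest subunits, which form the catalytic centre. Polr1b was at 19.2, 18.4 and 23.2 FPKM in Pro libraries, at 6.74, 7.81 and 6.05 in Baso, at 7.64, 7.51 and 6.76 in Poly, and at 6.97, 7.15 and 7.62 in Ortho. The Pro libraries stood apart, and the 9 later libraries overlapped. Its log2 fold change was -1.43 in Baso and -1.36 ± 0.11 (SE) in Ortho compared to Pro (adjusted p = 4.63e-07). Polr1a had lower levels, 12.4 ± 1.58 in Pro and 4.89 ± 0.79 in Ortho, with a change of -1.19 (adjusted p = 3.71e-05). Polr1c and Polr1d encode the assembly platform that RNA polymerases I and III share. Polr1c was at 49.0, 44.1 and 55.6 FPKM in Pro libraries, at 19.2, 22.5 and 21.5 in Baso, at 17.0, 17.4 and 17.6 in Poly, and at 13.0, 12.4 and 15.6 in Ortho. Its stages did not overlap at any step, and its fall from Poly to Ortho was -0.33 ± 0.10 (adjusted p = 0.0349), under the 2-fold limit. This adjusted p was 0.165 without hemoglobin genes and 0.214 with median centring, 0.0769 with no filter on low values, and over 0.05 without any single Poly library or without Ortho replicate 1 or 2, up to 0.131. Polr1c had the largest fall of the polymerase genes in Ortho compared to Pro, with -1.79 (adjusted p = 4.78e-08). Polr1d fell by 1.13 on the log2 scale (adjusted p = 1.04e-05), but by 0.98 when Pro replicate 1, its highest library, was left out. Polr1e, a subunit of the elongation heterodimer, was at 9.27 FPKM in Pro and 5.09 in Ortho, and its change of -0.75 (adjusted p = 7.66e-05) was under the 2-fold limit.

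Within the set, Ubtf followed a course of its own. It encodes the upstream binding factor, which coats active ribosomal DNA, and lies on chromosome 11 (mm10, positions 102304560 to 102319742, minus strand). Ubtf was at 113, 78.1 and 78.2 FPKM in Pro libraries, at 75.4, 79.2 and 87.5 in Baso, at 88.3, 75.7 and 89.6 in Poly, and at 44.9, 35.1 and 37.9 in Ortho. Pro, Baso and Poly overlapped, and the 3 Ortho libraries were below all others. The change from Poly to Ortho was -1.09 ± 0.14 (log2, SE, adjusted p = 1.24e-04), and that from Pro to Baso was -0.13 (adjusted p = 0.445). The difference between these steps was -0.96 ± 0.20 (adjusted p = 0.00316). Without hemoglobin genes the fall from Poly to Ortho was -0.95 (adjusted p = 4.02e-04), and with libraries centred on the median it was -0.94 (adjusted p = 3.30e-04), both short of 2-fold. In Ortho compared to Pro, Ubtf fell by 1.16 on the log2 scale (adjusted p = 1.86e-05), and by 0.98 without Pro replicate 1. Of all 3092 genes called lower in this comparison, 886 had their largest drop from Poly to Ortho.

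Rrn3 encodes the factor that makes the polymerase competent to start. It was at 20.2 ± 1.14 FPKM in Pro and 8.14 ± 0.72 in Baso, and fell by 1.41 in Ortho compared to Pro (log2, adjusted p = 5.58e-08). The 4 Taf1 genes encode parts of selectivity factor 1, which binds the promoter of ribosomal DNA. Taf1c fell by 1.28 (adjusted p = 8.97e-07), from 14.1 FPKM in Pro to 5.19 in Ortho. Taf1d fell by 1.12 (adjusted p = 1.46e-04), and by 0.94 without Ortho replicate 3. Taf1a had a change of -0.80 (adjusted p = 0.00188), from 6.60 to 3.43 FPKM. Taf1b was at 6.55, 6.07 and 7.13 FPKM in Pro libraries, at 5.43, 5.18 and 4.31 in Baso, at 5.38, 5.31 and 6.18 in Poly, and at 7.04, 5.80 and 6.26 in Ortho. Pro and Ortho overlapped, and the Baso libraries were the lowest as a group. Its change in Ortho compared to Pro was -0.04 (95% confidence interval -0.28 to 0.19, adjusted p = 0.733). Taf1b changed sign with the scaling, to 0.38 without hemoglobin genes (adjusted p = 0.00622) and 0.35 with libraries centred on the median (adjusted p = 0.0103).

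**Figure D4:**
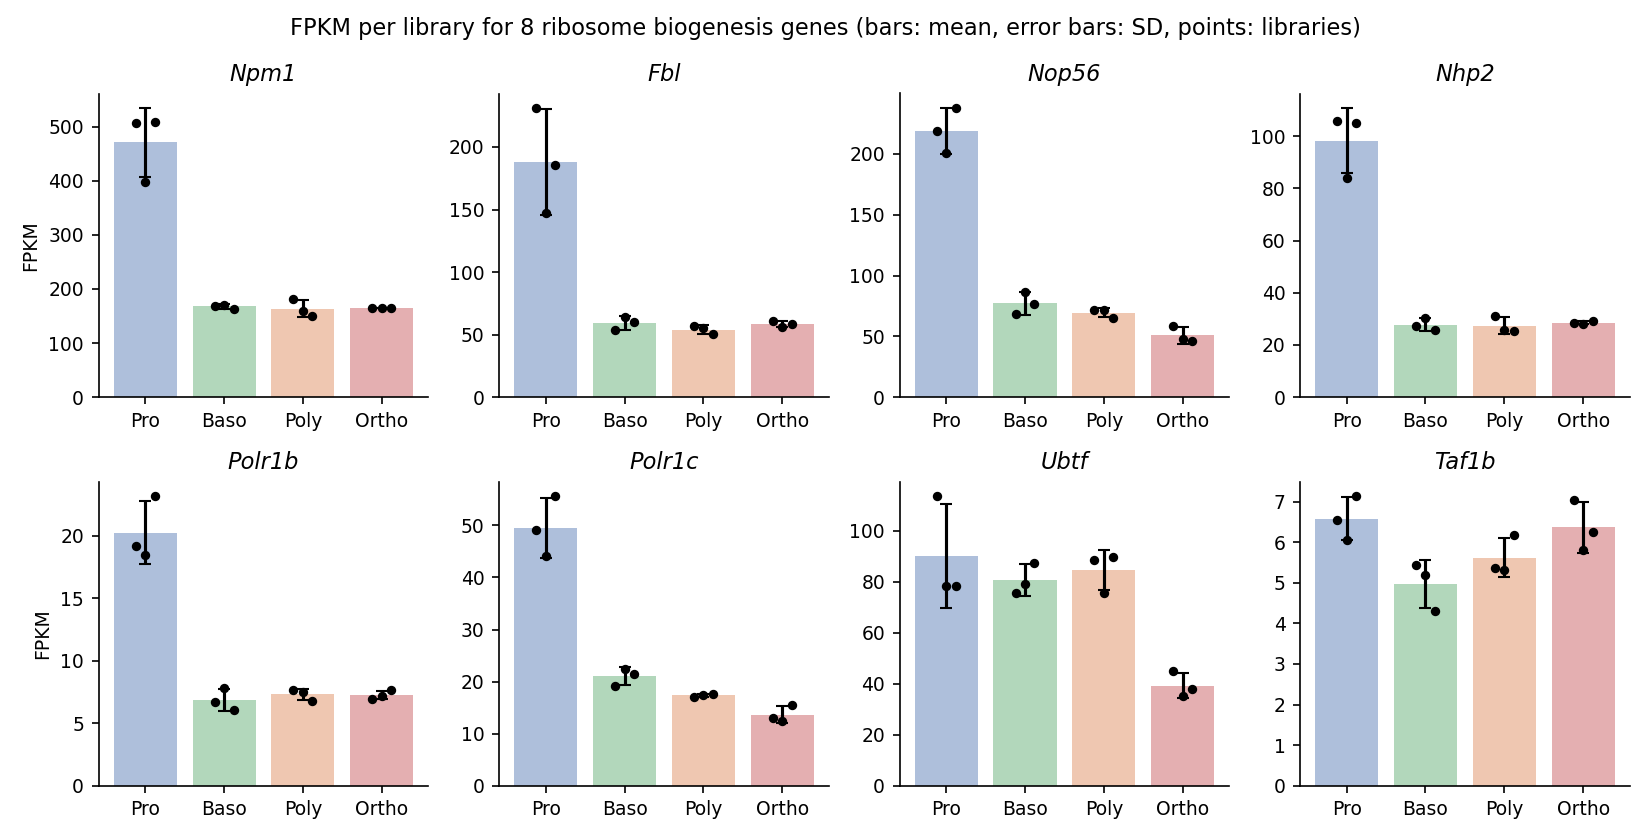
FPKM of 8 ribosome biogenesis genes by stage (bars are means, error bars SD, points the 3 libraries). Npm1, Fbl, Nop56, Nhp2, Polr1b and Polr1c are highest in the Pro libraries, Ubtf is lowest in the Ortho libraries, and Taf1b overlaps between Pro and Ortho.

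The box C/D snoRNP adds methyl groups to the ribose of ribosomal RNA, and its 3 core genes in the set were called lower in Baso and in Ortho compared to Pro. Fbl, which encodes the methyltransferase fibrillarin, was at 231, 147 and 186 FPKM in Pro libraries, at 53.7, 64.2 and 60.1 in Baso, at 57.0, 54.9 and 50.2 in Poly, and at 60.9, 56.3 and 58.6 in Ortho. Its Pro libraries were spread widely, yet the lowest was more than 2-fold above any later library. The change in Ortho compared to Pro was -1.64 ± 0.14 (log2, SE, adjusted p = 6.32e-07). Nop56, a scaffold of this particle, was at 219, 200 and 238 FPKM in Pro libraries, at 68.1, 86.5 and 76.9 in Baso, at 71.4, 71.9 and 64.9 in Poly, and at 58.8, 47.5 and 45.8 in Ortho. It was among the few genes of the set to go on falling at the last step (-0.45, adjusted p = 0.0105), and it had the largest fall of the 37 in Ortho compared to Pro (-2.09 ± 0.11, adjusted p = 3.09e-08). With libraries centred on the median, the last-step change of Nop56 did not pass the adjusted p. Nop58, the partner of Nop56, fell by 1.70 (adjusted p = 3.23e-07), from 31.8 FPKM in Pro to 9.08 in Ortho.

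The box H/ACA snoRNP converts uridines to pseudouridine, and also forms part of telomerase. Of its 4 genes, 3 were called lower in Baso and in Ortho compared to Pro. Nhp2 had the largest fall of the 37 genes from Pro to Baso, with a log2 fold change of -1.78 ± 0.11. It was at 106, 83.9 and 105 FPKM in Pro libraries, at 27.4, 30.4 and 25.7 in Baso, at 31.0, 25.9 and 25.3 in Poly, and at 28.4, 28.0 and 29.3 in Ortho. The later 9 libraries lay close together, below every Pro library. In Ortho compared to Pro, Nhp2 fell by 1.74 (adjusted p = 7.60e-08) and Gar1 by 1.83 (adjusted p = 3.35e-07). Dkc1, which encodes the pseudouridine synthase dyskerin, was at 71.2 ± 6.46 FPKM in Pro and 34.9 ± 3.36 in Baso, then at 27.2 ± 3.87 in Poly and 24.2 ± 1.35 in Ortho, with a change of -1.51 (adjusted p = 2.43e-07). Its call in Baso compared to Pro (-1.01) was lost without Pro replicate 1 or Baso replicate 1, at -0.94 and -0.93. Nop10, the smallest component, was spread widely in Pro, at 26.7, 41.8 and 60.6 FPKM, against 19.6-24.9 in Baso and 25.1-26.7 in Ortho. Its lowest Pro library was level with its highest Ortho library, and its change of -0.65 ± 0.22 (adjusted p = 0.0182) was under the 2-fold limit. Without 1 library at a time it ranged from -0.94 to -0.37, the latter without Pro replicate 3 (adjusted p = 0.0688). The adjusted p was also over 0.05 without hemoglobin genes (-0.17, adjusted p = 0.49), with each library centred on its median (-0.25, 0.327), with only these 2 stages (0.0514) and with no filter on low values (0.0619).

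The 5 abundant nucleolar proteins were called lower in Baso and in Ortho compared to Pro. Npm1 encodes nucleophosmin, a histone and pre-ribosome chaperone, and had the highest level of the set. Npm1 was at 507, 398 and 508 FPKM in Pro libraries, at 169, 171 and 162 in Baso, at 181, 159 and 150 in Poly, and at 165, 164 and 165 in Ortho. After the drop its stages overlapped, and the change in Ortho compared to Pro was -1.50 ± 0.10 (log2, SE, adjusted p = 1.15e-07). Ncl, which encodes nucleolin, was at 161 ± 34.8 FPKM in Pro and 50.1 ± 0.71 in Ortho, a change of -1.64 (adjusted p = 2.85e-07). Nolc1, a phosphoprotein that binds snoRNPs, fell by 1.88 (adjusted p = 3.71e-08), from 74.9 to 19.5 FPKM. Gnl3 encodes nucleostemin, a GTP-binding protein of dividing stem and progenitor cells, and fell by 1.84 (adjusted p = 2.88e-07), from 83.9 to 22.5 FPKM. Ddx21, an RNA helicase, fell by 1.36 (adjusted p = 3.63e-07), from 59.2 to 22.3 FPKM.

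Among the 4 large subunit factors, all were called lower in Baso compared to Pro and 3 in Ortho compared to Pro. Pes1, Bop1 and Wdr12 encode a complex that acts on the large-subunit precursor, and Nop2 encodes a methyltransferase of its RNA. In Ortho compared to Pro, Nop2 fell by 1.47 (adjusted p = 1.00e-07), Pes1 by 1.13 (adjusted p = 4.93e-06) and Wdr12 by 1.32 (adjusted p = 3.20e-04). Bop1 was at 28.8 ± 3.05 FPKM in Pro, 13.7 ± 1.56 in Baso and 15.2 ± 0.27 in Ortho, and its change of -0.87 (adjusted p = 6.71e-06) was under the 2-fold limit. The call of Bop1 in Baso (-1.02) was lost without Pro replicate 3, Baso replicate 1 or Baso replicate 3 (-0.94 to -0.98). The 3 genes of the complex were thus lower in each later stage, with Bop1 the least so.

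The small subunit processome is the early complex that folds the small-subunit precursor, and 4 of its 6 genes in the set were called lower in both comparisons with Pro. Nop14 fell by 1.54 (adjusted p = 1.85e-06), Utp18 by 1.40 (adjusted p = 3.59e-07), Rrp9 by 1.28 (adjusted p = 6.65e-06) and Wdr43 by 1.25 (adjusted p = 1.01e-07) in Ortho compared to Pro. Utp15 (11.3 FPKM in Pro and 6.38 in Ortho) and the scaffold gene Utp20 (6.95 and 3.76) had changes of -0.74 (adjusted p = 7.96e-05) and -0.73 (adjusted p = 4.35e-04), under the 2-fold limit. The 4 late small subunit factors, which act during export and final trimming, were called lower in Baso and in Ortho compared to Pro. Nob1, the nuclease that makes the last cut of the small-subunit RNA, fell by 1.15 (adjusted p = 3.97e-05), Tsr1 by 1.41 (adjusted p = 3.37e-05), Ltv1 by 1.17 (adjusted p = 1.46e-05) and Rrp12 by 1.26 (adjusted p = 2.03e-05) in Ortho compared to Pro.

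Levels within the set spanned a wide range in Pro, from mean FPKM values of 6.58 for Taf1b, 6.60 for Taf1a and 6.95 for Utp20 to 471 for Npm1. Pro replicate 2 was the lowest Pro library for 30 of the 37 genes, and replicate 3 the highest for 23. Across the 37 genes, higher levels in Pro went with larger falls in Ortho (Pearson r = -0.65 between the log2 level in Pro and the log2 fold change), a description only, since both values use the same Pro libraries and the added 1 FPKM shrinks the change of low genes. Introns and other parts of 8 of the 37 genes hold 29 small nucleolar RNA genes on the same strand, of which 12 passed the filter on low values. The counting of such overlapping genes was not described beyond the tool, so a share of their reads could have been split from the host gene.

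The pathway was wider than the 37 genes. A second list of 113 ribosome biogenesis factors, none of them in the set, was taken from textbook knowledge. Earlier results of these data were known when it was chosen. The 112 matched by symbol were tested. Of these, 51 were called lower in Baso compared to Pro, against 8.54% of all genes, and 65 in Ortho compared to Pro, against 23.8%. None was called higher, against 1.82% and 6.33%. Fewer were called lower in Ortho without hemoglobin genes or with libraries centred on the median, as given in the last section. In the steps from Baso to Poly and from Poly to Ortho none was called. Of all genes, 0.454% and 4.81% were called lower at these steps, and 0.0616% and 1.05% higher. By adjusted p alone, 1 of the 112 was below 0 at the step to Poly, against 5.77% of all genes. At the step to Ortho 9 were below 0 and 1 above 0, against 21.7% and 4.43%. The median log2 fold change of the list was -0.99 in Baso and -1.12 in Ortho compared to Pro, against -0.23 and -0.43. The largest falls in Ortho were those of Noc2l (-1.89, adjusted p = 1.59e-08), Znhit3 (-1.79), Lyar (-1.75), Ftsj3 (-1.73) and Ddx18 (-1.69). Among the most abundant factors, Emg1, a methyltransferase, went from 114 ± 11.6 FPKM in Pro to 40.5 ± 2.17 in Ortho, and Rrp1 from 123 ± 25.1 to 43.6 ± 2.97. Nol7 (78.9 and 31.2 FPKM) was called lower too, whereas Nop53 changed by -0.88. The 2 genes without an adjusted p under 0.05 in Ortho compared to Pro, named after their values were seen, were Znrd1, a small subunit of RNA polymerase I, at 12.4 FPKM in Pro and 12.4 in Ortho, and Mdn1, at 4.12 and 3.11 FPKM.

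Genes of related machines were compared in the same way, on the values as deposited only. Of all genes tested, 8.54% were called lower in Baso and 23.8% in Ortho compared to Pro, with medians of -0.23 and -0.43. By adjusted p alone, 42.1% of all genes were below 0 in Baso compared to Pro. The 5 subunits shared by RNA polymerases I, II and III had a median change of -1.23 from Pro to Baso, with 3 called lower. The 7 subunits specific to RNA polymerase II had a median of -0.75 and none called at that step, although 6 were below 0 by adjusted p alone, and 5 of 7 were called lower in Ortho compared to Pro. Polr2a, the largest of them, was at 48.9 ± 3.01 FPKM in Pro and 54.0 ± 5.23 in Baso, then at 51.9 ± 2.83 in Poly and 30.2 ± 0.42 in Ortho, and changed by -0.76 at the last step (adjusted p = 2.43e-05). Of 10 subunits specific to RNA polymerase III, 4 were called lower in Baso and 5 in Ortho compared to Pro. Polr3g, one form of a subunit, went from 5.45 FPKM in Pro to 1.75 in Baso, and its paralog Polr3gl from 16.4 to 15.3. Of 81 cytosolic ribosomal protein genes tested, 38 were called lower in Baso and 65 in Ortho compared to Pro, with medians of -0.96 and -1.28. At the step from Baso to Poly, 28 of these 81 genes were below 0 by adjusted p alone, against 5.77% of all genes. None of the 37 ribosome biogenesis genes was. The medians were -0.28 for the ribosomal protein genes and -0.02 for the 37 genes. The difference between these lists was not tested.

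**Figure D5:**
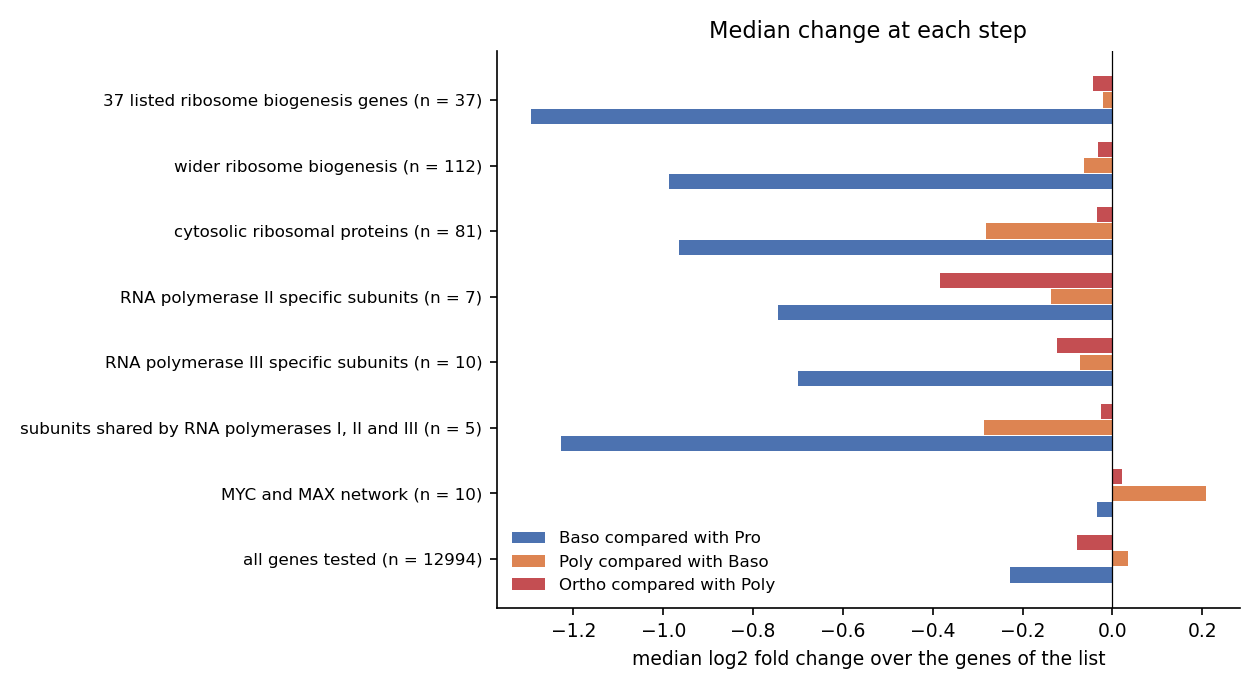
Median log2 fold change of each gene list at the 3 steps between neighbouring stages (bars, n is the number of genes tested). The 37 ribosome biogenesis genes have a median of -1.29 from Pro to Baso and bars near 0 afterwards, while the ribosomal protein genes have a further -0.28 from Baso to Poly.

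Ribosomal RNA itself could be seen only through 3 gene models that overlap ribosomal DNA sequence, and these values also depend on how much ribosomal RNA was left in each library. AY036118 was at 1702 ± 323 FPKM in Pro and 1209 in Ortho, and Gm42418 at 124 ± 69.8 and 97.9, with wide spread and no call. Gm26917 went from 41.7 ± 11.8 FPKM in Pro to 18.2 ± 0.94 in Baso and was called lower.

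MYC is known to drive many ribosome biogenesis genes through the E-box CACGTG, and MXD proteins compete with it for the partner MAX. Myc was at 34.7 ± 6.74 FPKM in Pro and 21.4 ± 4.95 in Baso, a change of -0.68 ± 0.22 (log2, SE, adjusted p = 0.0188), under the 2-fold limit. All genes tested had a median of -0.23 at this step, and the change of Myc is given as deposited only. Mxd1 was called higher in Baso compared to Pro, from 34.4 ± 4.48 to 77.4 ± 10.9 FPKM, with a change of 1.15 (adjusted p = 3.03e-05), and reached 148 FPKM in Ortho. Mxd3 was at 23.6 FPKM in Pro libraries, at 42.4 in Baso, at 76.9 in Poly, and at 14.1 in Ortho, with a change of -2.37 at the last step (adjusted p = 1.51e-08). Max was at 52.2 FPKM in Pro and 47.7 in Baso. By adjusted p alone, 3 of the 10 MYC and MAX network genes tested were lower in Baso and 3 higher. Of all 12994 genes, 5465 were lower and 1939 higher. The network had a median of -0.03. Besides Myc, Mga (-0.60) and Mnt (-0.48) were lower, and besides Mxd1, Mxd3 (0.83) and Mxi1 (0.81) were higher. Mxd4 was at -0.04. The part of these genes in the changes of the set was not tested.

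The promoter windows of the set were read for a few motifs on both strands. Each window ran from 250 bases before to 50 bases after an annotated start in RefSeq (GRCm38.p6). Windows were found for 33 of the 37 genes, and Fbl, Bop1, Rrp12 and Npm1 had none. The E-box CACGTG was in 8 of the 33 genes (24.2%), namely Rrn3, Nop2, Pes1, Wdr43, Utp18, Utp20, Tsr1 and Ltv1. Of all 27025 genes with a window 8.09% held it, and of 8900 such genes that were tested here 12.1% did. In 3 of the 8 genes an E-box lay before the start. For these genes, the stretch around the E-box nearest the start is given with the E-box in capitals, with up to 30 bases on each side and no base beyond the start.
Nop2, chr6:125131793-125131858, plus strand, E-box 60 bases before the start: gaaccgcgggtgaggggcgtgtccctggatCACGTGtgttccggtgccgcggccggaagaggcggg
Utp18, chr11:93885767-93885816, minus strand, E-box 20 bases before the start: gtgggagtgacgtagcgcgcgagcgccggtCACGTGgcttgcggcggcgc
Rrn3, chr16:13780621-13780686, plus strand, E-box 48 bases before the start: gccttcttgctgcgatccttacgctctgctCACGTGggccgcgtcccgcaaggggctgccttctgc

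Rrn3 had a further E-box 215 bases before the start. The 3 genes shown fell by 1.47 (Nop2), 1.40 (Utp18) and 1.41 (Rrn3) on the log2 scale in Ortho compared to Pro. The median change of the 37 genes was -1.32. Whether any motif bears on these changes was not tested. The ETS motif CCGGAAG was in 13 of 33 genes (39.4%), against 21.7% of tested genes, among them Taf1b and Polr1c, which stood at opposite ends of the RNA polymerase I group. The NRF1 motif GCATGCG was in 5 of 33 (15.2%), Ubtf included, against 7.52% of tested genes. The GATA motif AGATAA was in none of the 33, against 8.13% of tested genes. Genes with several starts have several windows, 42 for the 33 genes, and these matches are letters in a window and not measured binding.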

How the data were processed

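The deposited values are FPKM, 1 per gene and library. Per the submitters' processing notes and the methods of the study, reads were trimmed (cutadapt, Trimmomatic), aligned to mm10 (HISAT2) and counted (featureCounts). The annotation and tool versions are not given in the sources used here. The labels name Trizol extraction and an NEBNext Ultra kit, whereas the methods of the study name another lysis and library kit. The table had 29839 lines, with 1 repeated identifier removed.

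A gene needed at least 1 FPKM in 3 or more libraries, which 12994 genes met. The 37 genes passed this filter in the Baso, Poly and Ortho libraries taken alone. Limma 3.58.1 in R 4.3.3 was run on log2(FPKM + 1) with a variance trend and the 12 libraries in 1 model. Two-sided p-values were Benjamini-Hochberg adjusted over all genes tested, and intervals are 95% confidence intervals of limma. The added 1 makes changes of low genes look smaller. The authors used DESeq2 on counts, which cannot be repeated on FPKM. The model was tested on simulated data. The members and lists were chosen with earlier results of these data known. All 37 genes are named, and of the wider list the 5 most abundant and the 5 largest falls. Same-numbered libraries deviated together in Baso, Poly and Ortho (correlations of 0.156 to 0.319), and much less so with Pro (0.00524 to 0.0968). For libraries of different number the correlations were -0.206 to 0.0287 among Baso, Poly and Ortho, and -0.123 to 0.0545 with Pro. The numbers therefore pair Baso, Poly and Ortho by their values alone, since the labels state no source. Positions come from GENCODE M21, and promoters from RefSeq. Figures were drawn with Python 3.11.15.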

Additional observations from a re-analysis of the deposited data

How the results depend on the processing

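FPKM is relative and depth is unknown, and the sizes depended in part on the scaling of the libraries. Of the 37 genes, 18 were called lower in Baso compared to Pro without hemoglobin genes and 18 with libraries centred on the median, with medians of -0.98 and -0.999. A pseudocount of 0.1 gave 32 called lower (12.4% of all genes) and a median of -1.31. A pseudocount of 5 gave 20 (3.49%) and -1.02, and rescaling to the same sum 34 (14.0%) and -1.47. In Ortho compared to Pro, 13 (without hemoglobin) and 15 (centred) were called lower. The medians were -0.88, -0.92, -1.43 (pseudocount of 0.1), -1.04 (pseudocount of 5) and -1.65 (same sum). Near 0, the medians turned sign. From Baso to Poly the median was 0.0081 without hemoglobin, and from -0.059 to 0.038 leaving out 1 library at a time, above 0 without Baso replicate 2 or Poly replicate 3. From Poly to Ortho it was 0.083 without hemoglobin, 0.11 centred, -0.21 at the same sum, and from -0.054 to 0.011 leaving out 1 library, above 0 without Poly replicate 1.

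The count of genes called lower from Poly to Ortho was 0 without hemoglobin and 0 centred, against 3.61% and 3.36% of all genes. By adjusted p alone it was 3 (21.7% of all genes). Further counts by adjusted p alone under these scalings were added after the data were seen. From Poly to Ortho they gave 7 lower at the same sum (32.3% of all genes), 2 without hemoglobin (16.2%) and 1 centred (15.0%). From Baso to Poly 1 was lower when centred (Dkc1, against 7.67% of all genes). In Ortho compared to Pro 1 was higher (Taf1b) without hemoglobin and 1 centred, and 0 at the same sum. Even with the 2-fold limit added, 1990 of 12989, 2078 of 12994 and 321 of 12994 genes were called higher in these scalings. The change of Taf1b in Ortho compared to Pro was 0.38 without hemoglobin, 0.35 centred and -0.36 at the same sum (adjusted p = 0.0111), and ranged from -0.11 to 0.014 leaving out 1 library, above 0 without Pro replicate 3 or Ortho replicate 2. Of the wider list, 34 (pseudocount of 5), 99 (same sum), 16 (without hemoglobin), 19 (centred) and 110 (adjusted p alone) were lower in Ortho compared to Pro. The shares of all genes were 13.4%, 37.4%, 8.88%, 9.95% and 53.2% in the same order. Leaving out 1 library at a time, the called counts of the 37 genes were 27 to 30 in Baso and 28 to 30 in Ortho compared to Pro, the wider list gave 62 to 68, and 33 to 35 genes had the smaller fall at the last step.

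With the replicate number as a block, the counts of genes called lower were 28, 0, 1 and 30. The shares of all genes were 8.58%, 0.446%, 4.79% and 23.8%. The order is Baso compared to Pro, Poly to Baso, Ortho to Poly and Ortho to Pro. The block in Baso, Poly and Ortho alone changed no call by adjusted p and fold, but brought 1 gene (Dkc1) below 0 by adjusted p alone from Baso to Poly. No filter, a mean FPKM of at least 5, no variance trend and fitting only the stages compared left these counts of calls within 1.5 times. The causes of these differences were not tested.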
